A study of Drosophila melanogaster with 2 samples.

Results

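The genes described here encode 10 insulator and architectural proteins of Drosophila melanogaster: CTCF, BEAF-32, su(Hw), Cp190, mod(mdg4), pita, M1BP, Chro, Trl and Dref. They were chosen by name, as 10 of the 13945 protein-coding genes on the chromosome arms. The data are ChIP-seq regions, background regions among them, from a stable transgenic fly line. The line expresses CG14965-eGFP, the product of the gene CG14965 with green fluorescent protein at its C terminus. Chromatin of mixed-sex whole embryos, collected from 0 to 24 h, was sonicated to 200 to 800 bp and precipitated with an antibody to GFP. The single group holds 2 biological replicates, which the labels number 3 and 4, so no condition was compared and no test between groups was possible. No untagged line was analysed here. Since whole embryos were used, binding in fewer cells and weaker binding in each cell cannot be told apart.

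Insulator proteins bind defined DNA elements and limit which enhancers can act on a promoter, and many of their sites lie at the borders of chromatin domains or close to the starts of housekeeping genes. CTCF, su(Hw) and pita are zinc finger proteins that bind DNA directly. BEAF-32 and Dref recognise related words around CGATA, M1BP binds core promoter motif 1, and Trl encodes the GAGA factor. Cp190 and mod(mdg4) encode BTB domain cofactors that such proteins recruit, and Chro encodes a chromodomain protein of polytene interbands and active promoters. The regions below are those listed for CG14965-eGFP at these genes, background regions included, and do not describe where their own products bind.

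Regions came from 4 deposited lists on the dm6 build. The pooled list holds 30000 peaks and background regions called on both replicates together, and each replicate has a list of 30000 regions of its own. The optimal list is what the irreproducible discovery rate procedure retained, and its 1302 peaks were exactly the 1302 highest entries of the pooled list. The signal value is the authors' own score per region, with no stated scale. It is used here to describe and rank regions within a list, rank 1 being the highest, and values of different lists are not on a common scale, so replicates are compared by rank. The replicate value given for a pooled region is that of the strongest overlapping region. The median signal value was 26.16 in the pooled list, 14.53 in replicate 3 and 16.30 in replicate 4. The last optimal peak had 69.76 and the first pooled region outside had 69.73. Read numbers are in none of the lists used, and the depth is therefore unknown. A promoter region is one whose summit lay within 500 bp of any annotated transcription start site (TSS) of the gene.

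The sequences below are shown because they come from strong regions of these genes, or hold a word known for one of the proteins they encode. They were read from the Release 6 genome on the strand of the gene (minus for each) and leave out untranslated exons. The Chro and Dref stretches therefore do not include the summit, and the promoter peak of Trl is not printed. Capitals mark matches on either strand. The word of BEAF-32 was CGATA, and the DRE of Dref was TATCGATA, which contains it. The CTCF words were AGATGGCGC, AGGTGGCGC, AGAGGGCGC and AGGGGGCGC. The TATA box was searched as TATAAA. A match describes letters and is not evidence that a protein was bound.
Chro promoter, chr3L:22878985-22879066, immediately upstream of the TSS: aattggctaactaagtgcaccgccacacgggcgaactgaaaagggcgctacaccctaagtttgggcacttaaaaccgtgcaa
Trl intron peak, chr3L:14759442-14759542: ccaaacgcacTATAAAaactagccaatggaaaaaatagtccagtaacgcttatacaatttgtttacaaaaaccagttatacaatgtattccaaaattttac
Dref and RpL13 shared promoter, chr2L:9967230-9967312: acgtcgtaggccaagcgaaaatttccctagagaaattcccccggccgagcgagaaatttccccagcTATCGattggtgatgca
mod(mdg4) promoter, chr3R:21377414-21377514: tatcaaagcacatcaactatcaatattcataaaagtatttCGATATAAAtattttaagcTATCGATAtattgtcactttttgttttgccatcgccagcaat
mod(mdg4) region upstream, chr3R:21378466-21378566: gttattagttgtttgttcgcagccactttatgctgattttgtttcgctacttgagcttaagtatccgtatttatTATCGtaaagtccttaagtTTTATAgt
mod(mdg4) region past the gene end, chr3R:21350142-21350242: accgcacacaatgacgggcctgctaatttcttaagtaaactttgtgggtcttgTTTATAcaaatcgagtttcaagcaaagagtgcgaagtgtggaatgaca
CTCF promoter, chr3L:7356480-7356580: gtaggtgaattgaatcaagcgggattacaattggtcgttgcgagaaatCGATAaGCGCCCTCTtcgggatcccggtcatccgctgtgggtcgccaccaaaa

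At the threshold of the optimal list, 2 of the 10 genes had a promoter peak, Chro and Trl. Among all protein-coding genes the share was 4.90% (684 of 13945). In the gene body with 2 kb on each side, the same genes were the 2 of 10 with an optimal peak, against 11.5% of protein-coding genes. With so few genes the counts rest on Chro and Trl alone. In the longer pooled list all 10 genes had a promoter region, where the share of protein-coding genes was 42.5%, and all 10 had a region in the extended gene body, where it was 82.2%. In the list of replicate 3, 9 of 10 had a promoter region (47.4% of protein-coding genes). In that of replicate 4, 7 of 10 had one (34.3%). The pooled and replicate lists include background regions, so a region there need not be a reproducible peak.

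Both replicate lists held a promoter region for 6 of the 10 genes: BEAF-32, Cp190, pita, Chro, Trl and Dref. CTCF, mod(mdg4) and M1BP had one in replicate 3 alone, and su(Hw) in replicate 4 alone. Across protein-coding genes, 24.5% had a promoter region in both replicate lists. Among the 1302 highest regions of replicate 3, Chro, Trl and Dref had a promoter region (3 of 10, against 5.15% of protein-coding genes). Among those of replicate 4, Chro and Trl had one (2 of 10, against 4.39%). The median signal value of the strongest pooled promoter region was 48.31 over the 10 genes. It was 31.73 over the 5932 protein-coding genes that had such a region. The corresponding median ranks were 2755 and 8733.

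**Figure D1:**
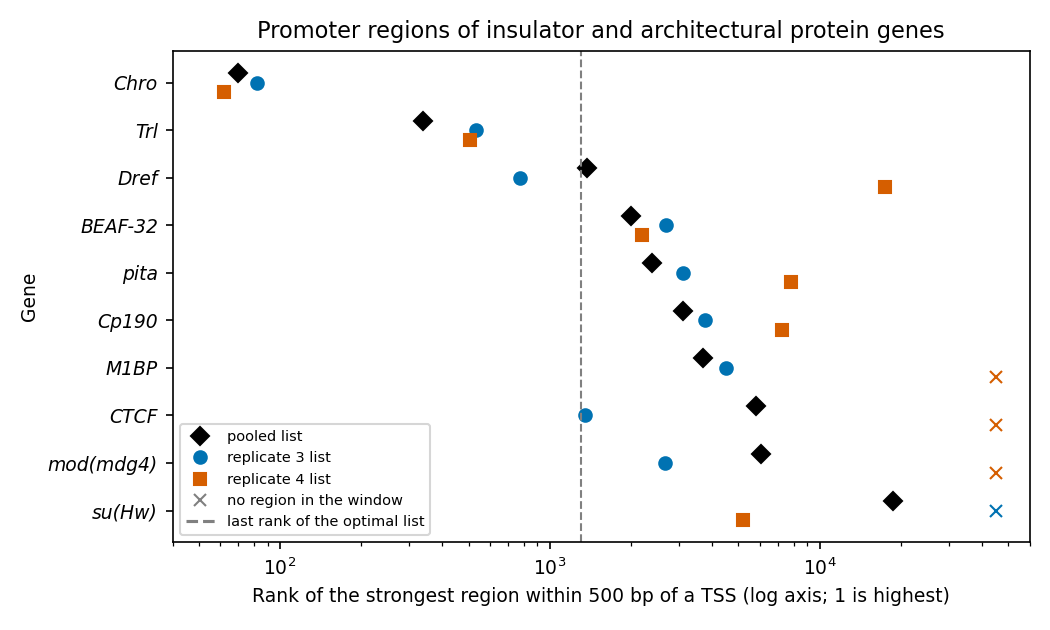
Rank, on a log axis, of the strongest region within 500 bp of a TSS of each gene in the pooled list (diamonds), replicate 3 (circles) and replicate 4 (squares); crosses mark a list with no region in the window and the dashed line the last rank of the optimal list, 1302. Chro and Trl lie left of the line in the pooled and both replicate lists, whereas Dref lies left of it in replicate 3 alone.

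The order of pooled promoter signal was Chro, Trl, Dref, BEAF-32, pita, Cp190, M1BP, CTCF, mod(mdg4) and su(Hw). Chro was far above the others and held place 23 among the 5932 genes with a pooled promoter region, Trl place 187 and Dref place 719. The next 4 genes, from BEAF-32 at 55.07 to M1BP at 42.97, lay close together. CTCF (36.47) and mod(mdg4) (35.98) were nearly equal, and neither had a promoter region in replicate 4. su(Hw) was last, at 24.04, below the median of the pooled list. With the 2 replicates used here, neighbours in this order cannot be separated by a test.

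**Figure D2:**
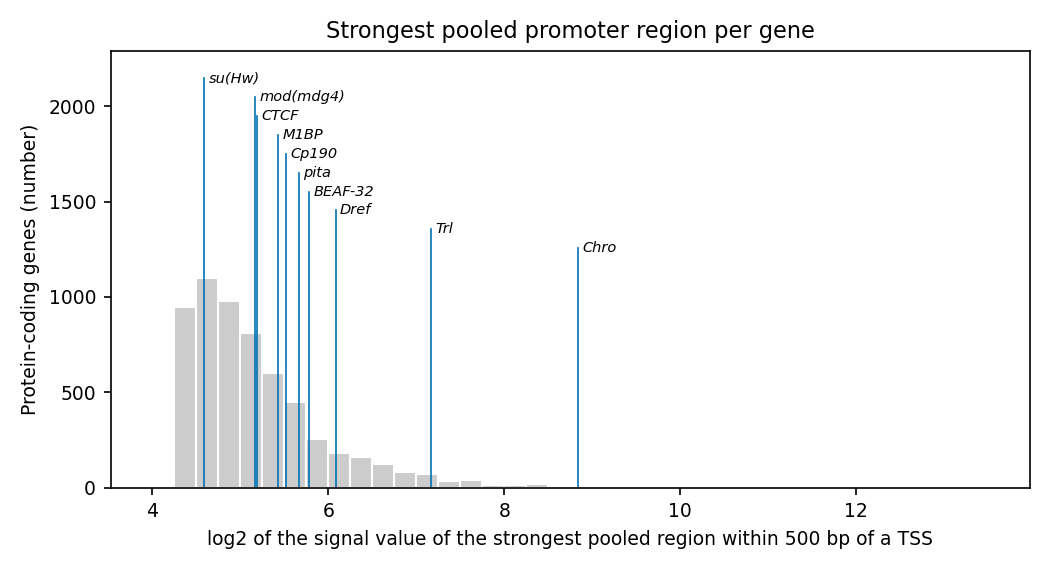
Number of protein-coding genes (grey bars) by log2 of the signal value of their strongest pooled region within 500 bp of a TSS, with each of the 10 genes drawn as a labelled line whose height has no meaning. Chro at a signal value of 456.1 and Trl at 143.2 lie in the upper tail, and su(Hw) at 24.04 lies among the most frequent values.

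Chro (FBgn0044324), whose product marks interbands of polytene chromosomes, carried the strongest region of the 10 genes. Its optimal peak at chr3L:22878745-22879066 had a pooled signal value of 456.1, rank 70. The value was 221.5 (rank 82) in replicate 3 and 227.3 (rank 62) in replicate 4, so both replicates placed it near the top. The summit lay 86 bp downstream of the most 5′ of 3 annotated Chro TSSs, in the 5′ UTR. It also lay 191 bp upstream of the TSS of Ssl1, a divergent gene for a subunit of the general transcription factor TFIIH, so this peak is a promoter peak of both genes. The printed stretch between both starts holds none of the words searched, and CGATA occurred once within 50 bp of the summit.

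The other 4 pooled regions in the extended body of Chro were far weaker, with signal values from 33.15 to 49.46. Each was overlapped in both replicates. The highest, in Chro coding sequence 1955 bp from the nearest TSS, had 15.37 (rank 13175) in replicate 3 and 27.60 (rank 2241) in replicate 4. The region in coding sequence of the downstream neighbour CG11109 had 11.68 (rank 23518) in replicate 3 and 29.40 (rank 1808) in replicate 4. Both therefore ranked higher in replicate 4. The region in Ssl1 coding sequence, 33.15 in the pooled list, had 13.42 (rank 17930) in replicate 3. In replicate 4 the region with the nearest summit had 14.67 (rank 20215), and a stronger one with its summit 231 bp away had 20.99 (rank 6378). In replicate 3 a further region lay 499 bp from a Chro TSS, just inside the 500 bp window, with a signal value of 15.4.

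Trl (FBgn0013263), the gene of the GAGA factor, carried 3 of the 4 optimal peaks found in the extended bodies of the 10 genes. The strongest, at chr3L:14759274-14759709, lay in a Trl intron 1557 bp downstream of the most 5′ TSS and 1530 bp upstream of the nearest of the other starts. Its pooled signal value was 203.2, rank 193, with 113.7 (rank 209) in replicate 3 and 79.74 (rank 215) in replicate 4. The 101 bp around its summit were 29.7% GC and held 1 TATAAA. This intronic site between alternative starts was stronger than any pooled region within 500 bp of a Trl start.

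The promoter peak of Trl, at chr3L:14756926-14757361, had a pooled signal value of 143.2, rank 338. It had 67.72 (rank 533) in replicate 3 and 50.72 (rank 508) in replicate 4, again near the top of both lists. Its summit lay in an annotated 5′ UTR, at a place where Trl and CG42507 overlap. It was 192 bp downstream of the innermost of 4 Trl TSSs and 3905 bp from the most 5′ one. The peak was thus a promoter peak only through the inner start. None of the words searched occurred within 50 bp of this summit.

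The third optimal peak, at chr3L:14762090-14762525, lay 1259 bp upstream of Trl and had a pooled signal value of 82.78, rank 947. It had 36.37 (rank 1765) in replicate 3 and 34.96 (rank 1093) in replicate 4. Only in replicate 4 did it rank among the highest 1302. The summit lay in the 5′ UTR of Mgat4a, 280 bp inside that gene, and 464 bp upstream of Tsen34, which encodes a subunit of the tRNA splicing endonuclease. Distance alone does not say to which of these 3 genes the site belongs. The other 8 pooled regions at Trl had signal values from 22.50 to 52.04 and so were well below the optimal threshold.

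**Figure D3:**
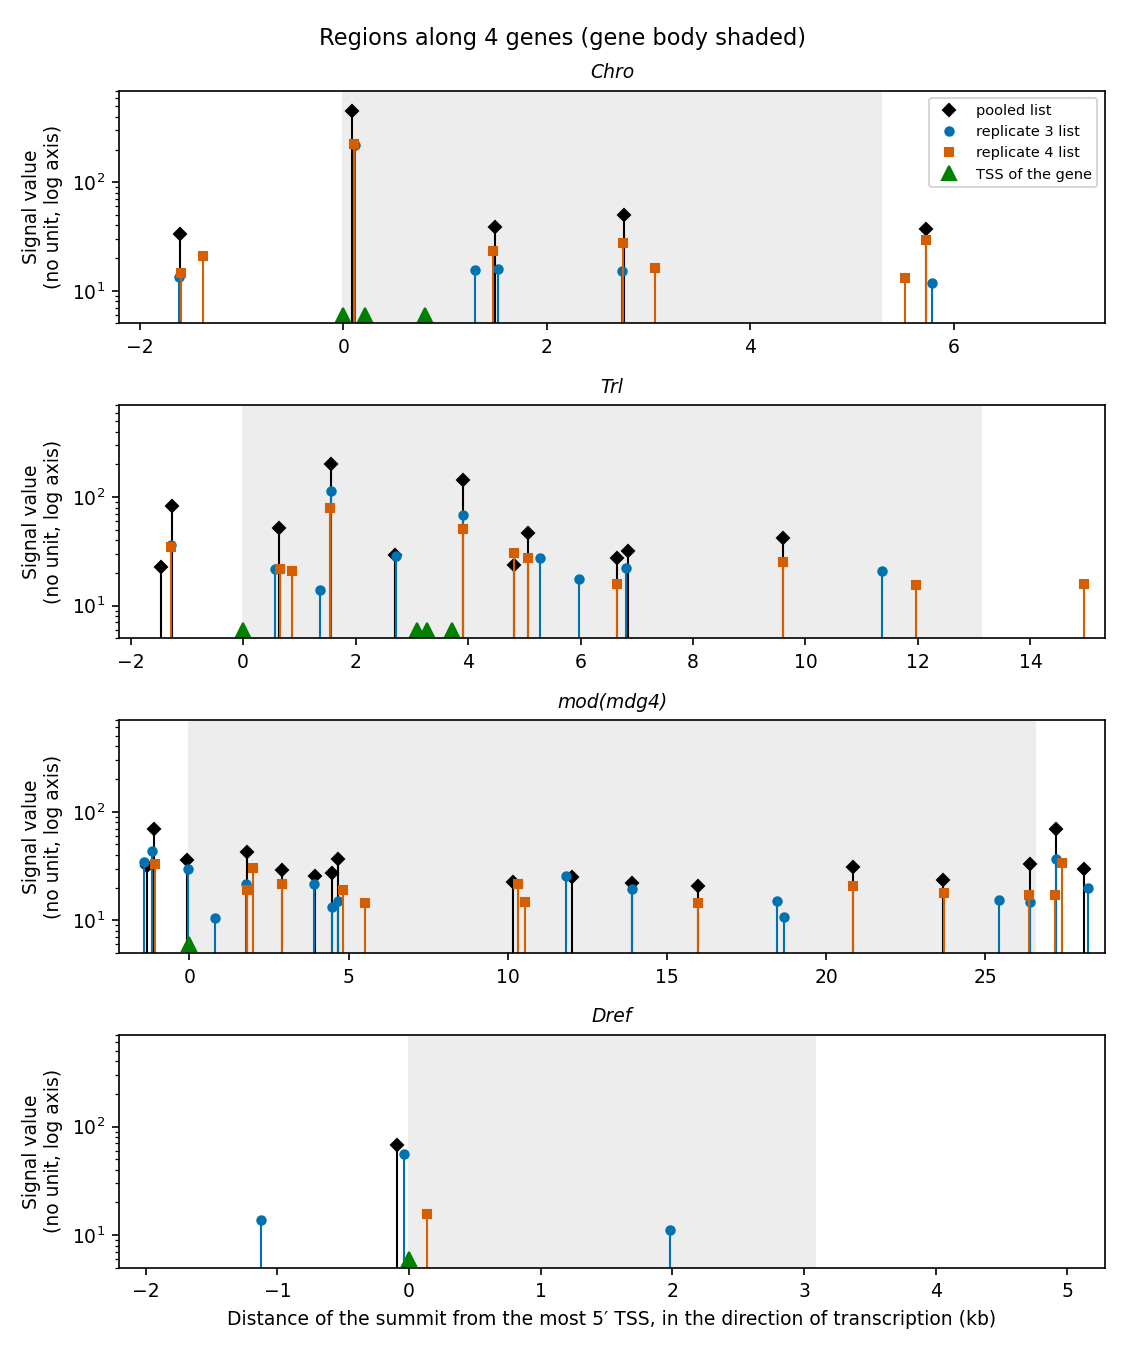
Signal value (log axis) of every region in the pooled (diamonds), replicate 3 (circles) and replicate 4 (squares) lists along Chro, Trl, mod(mdg4) and Dref, by distance of the summit from the most 5′ TSS in kb; the gene body is shaded and triangles mark TSSs. Chro has 1 high region at its start, Trl has 3 high regions, mod(mdg4) has its highest regions, 69.24 and 69.05, on each side of the gene, and Dref has 1 pooled region.

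Dref (FBgn0015664), which encodes the factor that binds the DNA replication-related element, came next and lay just outside the optimal threshold. Its only pooled region in the extended gene body, chr2L:9967101-9967536, had a signal value of 67.80, rank 1377. The replicates differed here: the promoter region had 56.31 (rank 772) in replicate 3 and 15.50 (rank 17386) in replicate 4, where the summit lay 226 bp from the pooled one. The value in replicate 4 was below the median of that list. The summit lay 90 bp upstream of the Dref TSS and 6 bp downstream of the TSS of RpL13, a ribosomal protein gene on the other strand. The printed stretch is the whole interval between these starts, 83 bp, and holds 1 CGATA but no DRE. That CGATA was not at the pooled summit: none of the words searched occurred within 50 bp of it. The replicate 3 summit lay 49 bp from the pooled one, nearer to the Dref TSS, and was not searched for words.

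BEAF-32 (FBgn0015602), whose product was defined at the boundary of a heat shock locus, had promoter regions at both ends of its cluster of 3 TSSs. The upstream one, chr2R:14770216-14770651, had a pooled signal value of 55.07 (rank 2003) with its summit 35 bp upstream of a TSS. The other, chr2R:14771068-14771503, had 52.65 (rank 2187) with its summit 15 bp upstream of the innermost TSS. Replicate 4 had 27.77 (rank 2197) at the first and 20.43 (rank 7041) at the second. Replicate 3 had 29.71 (rank 2695) at the second. At the first its nearest summit, 14 bp away, had 16.95 (rank 10510), and a stronger overlapping region with its summit 312 bp away had 20.76 (rank 6409). Each replicate thus ranked a different one higher. The antisense RNA gene CR42254 starts 9 bp from the second summit. CGATA, the word of the protein itself, occurred once at the second summit and not at the first.

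pita (FBgn0034878), the gene of a zinc finger protein of boundaries in the Bithorax complex, had 8 pooled regions in its extended gene body. The strongest, chr2R:23554352-23554787, lay 142 bp downstream of a TSS, in the 5′ UTR, with a pooled signal value of 50.76 (rank 2393). It had 27.90 (rank 3115) in replicate 3 and 19.88 (rank 7811) in replicate 4. A second pooled promoter region, 371 bp downstream of the inner start, had 24.36 and lay 133 bp upstream of Dcp-1, a caspase gene nested at this locus. Replicate 3 had an overlapping region of 13.75 (rank 17038) with its summit 343 bp away, outside the window, and replicate 4 had none. A region at 577 bp, just outside the window, had 27.07. The strongest of the flanking regions lay 274 bp inside Rrp4, an exosome subunit gene. It had 44.72, with 33.07 (rank 2139) in replicate 3 and 15.03 (rank 18930) in replicate 4. One coding-sequence region held a CTCF word near its summit.

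M1BP (FBgn0037621), whose product binds motif 1 at genes with paused polymerase, had its strongest region at chr3R:8731800-8732235, 320 bp upstream of the TSS, with a pooled signal value of 42.97 (rank 3691). In replicate 3 the strongest overlapping region had 24.04 (rank 4484) with its summit 109 bp away, and the one with the nearest summit, 91 bp away, had 11.68 (rank 23540). In replicate 4 the overlapping region, 19.62 (rank 8198), had its summit 581 bp upstream and so fell outside the window. The pooled list held a neighbouring region at the same 581 bp, with 32.74. Both summits were closer to CG8202 on the other strand, 73 bp upstream and 188 bp downstream of its TSS, than to M1BP. The motif 1 word GGTCACACT was found at 0 of the 63 pooled regions of the 10 genes, and at 0.237% of all pooled regions, so rarely that its absence from 63 says nothing about these genes.

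The BTB cofactor gene Cp190 (FBgn0000283) had a single strong region among 4. It lay at chr3R:15275298-15275733, 275 bp upstream of the TSS, with a pooled signal value of 45.85 (rank 3117), and had 25.81 (rank 3773) in replicate 3 and 20.28 (rank 7278) in replicate 4, the latter with its summit 189 bp away. The pooled summit lay 6 bp upstream of the TSS of the divergent gene CG4338. The other 3 regions, 2 in coding sequence and 1 in an intron, had 19.92 to 21.99, and each was listed in only 1 replicate.

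CTCF (FBgn0035769), the fly homologue of the vertebrate insulator protein, showed a CTCF word at its own promoter region. The region, chr3L:7356323-7356758, had a pooled signal value of 36.47 (rank 5796), with its summit 172 bp downstream of the TSS, in an intron that an exon of the antisense RNA gene CR45822 overlaps. It had 41.63 (rank 1348) in replicate 3, and no region of the replicate 4 list overlapped it. In the printed sequence the word reads GCGCCCTCT, the reverse complement of AGAGGGCGC, and stands 1 base from a CGATA. The other 2 pooled regions at CTCF had 29.30, listed in replicate 4 alone, and 20.54.

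mod(mdg4) (FBgn0002781) is known for assembling many protein isoforms by trans-splicing, and the annotation lists the separately transcribed 3′ parts as pre-mod(mdg4) genes. It had 17 pooled regions in a window of 30.6 kb, and the strongest lay outside the gene on each side. One, chr3R:21349974-21350409, 27209 bp downstream of the TSS and past the gene end, had 69.24 (rank 1318), with 36.58 (rank 1748) in replicate 3. In replicate 4 the strongest overlapping region had 33.49 (rank 1232) with its summit 191 bp away, and the region with the nearest summit, 30 bp away, had 16.97 (rank 13258). The other, chr3R:21378298-21378733, 1115 bp upstream of the TSS, had 69.05 (rank 1330), with 43.77 (rank 1227) in replicate 3 and 33.29 (rank 1251) in replicate 4. Both ranked just after the last optimal peak, at 1302, and the upstream one was among the highest 1302 of each replicate. Its summit lay 461 bp upstream of tin, the homeobox gene tinman of heart development, on the other strand.

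The promoter region of mod(mdg4), 63 bp upstream of the TSS, was weaker, with 35.98 (rank 6039) in the pooled list and 29.88 (rank 2667) in replicate 3. The replicate 4 list had no region there. It was the only 1 of the 63 pooled regions with a DRE, the word of Dref, and it held CGATA 3 times and TATAAA once. Inside the gene, a region with 24.85 lay at the starts of pre-mod(mdg4) genes on both strands, 85 bp and 234 bp upstream of them, and was listed in replicate 3 but not in replicate 4. A region with 25.73 lay 108 bp inside 3 other pre-mod(mdg4) genes.

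su(Hw) (FBgn0003567), the gene of the protein that binds the insulator of the gypsy retrotransposon, had the weakest promoter region. At chr3R:14308608-14309043, it had a pooled signal value of 24.04 (rank 18636), 237 bp upstream of the TSS, and 22.16 (rank 5191) in replicate 4. The replicate 3 list had none there. The summit lay 263 bp upstream of the divergent gene Polr2I, which encodes an RNA polymerase II subunit. The core su(Hw) word TGCATAC was found at 2 of the 63 regions, 1 past the 3′ end of su(Hw) in coding sequence of IFT54 and 1 near M1BP.

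Most of these promoters had a near neighbour. A TSS of another gene, coding or noncoding, lay within 500 bp of the strongest pooled promoter summit in 6 of the 10 genes. Among all protein-coding genes with a pooled promoter region this held for 38.6% (2289 of 5932). At Dref, Cp190 and M1BP the summit was nearer to the neighbour's TSS than to that of the named gene.

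The extended bodies of the 10 genes, 109.9 kb in all, held 63 pooled regions, 63 of replicate 3, 53 of replicate 4 and 4 optimal peaks. Per 100 kb this was 57.3 pooled regions, against 28.4 for all protein-coding genes. For the replicates it was 57.3 against 29.3 and 48.2 against 27.0, in the order 3 and 4. The optimal peaks gave 3.64 against 1.30, and 3 of the 4 were those at Trl. The median was 5 pooled regions per gene against 2. mod(mdg4) with 17 and Trl with 11 held the most, and Dref held 1. Some regions of a list overlap each other, as at Trl and pita, and the counts take each entry separately.

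Of the 63 pooled regions, 25 had their summit in coding sequence, 16 in a 5′ UTR, 9 in an intron, 8 between genes, 3 in a 3′ UTR and 2 in an exon of a noncoding RNA. Features of any gene counted, and a 5′ UTR took precedence over coding sequence where both overlapped. The 5′ UTR could be that of another gene, as for RpL13 beside Dref and Mgat4a beside Trl. It could also lie far from the TSS of the named gene, as at 20856 bp in mod(mdg4). Replicate 3 had an overlapping region at 49 and replicate 4 at 46, with 33 overlapped in both and 1 in neither. Over all 30000 pooled regions, 66.3% were overlapped in replicate 3 and 69.2% in replicate 4. The shares overlapped in both or in neither are not given over all pooled regions, so those counts stand without a background. At 10 of the 63 the strongest overlapping region of a replicate was not the one with the nearest summit.

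**Figure D4:**
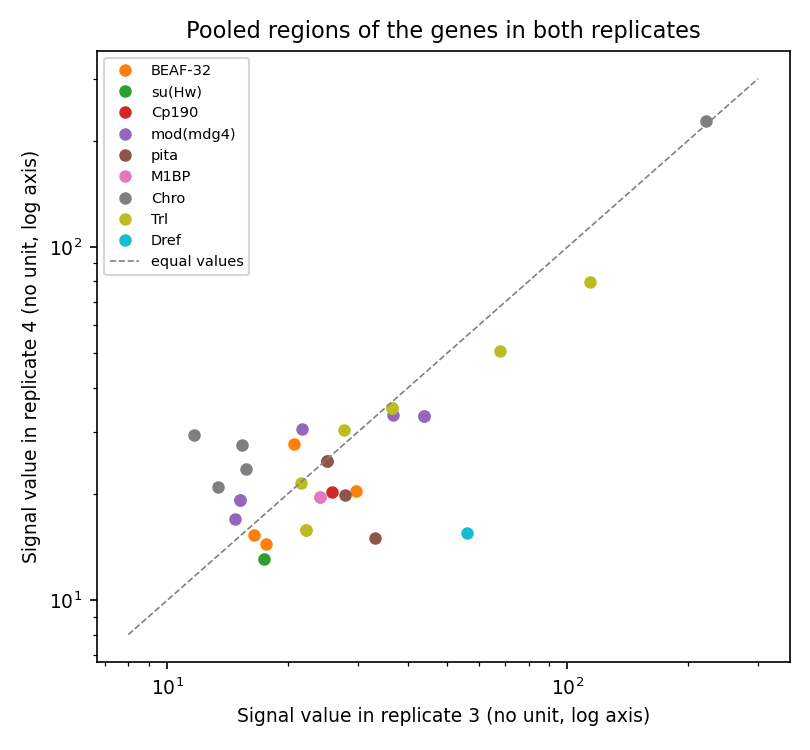
Signal value in replicate 3 against replicate 4 (both log axes) of the strongest region overlapping each of the 33 pooled regions of these genes that are overlapped in both replicate lists, coloured by gene, with the line of equal values; adjacent pooled regions that overlap the same replicate regions share a point. The Chro promoter (221.5 and 227.3) and the Trl intron (113.7 and 79.74) stand apart, and the Dref promoter (56.31 and 15.50) lies farthest below the line. Values of the replicate lists are not on a common scale, so the line is a guide to the eye and does not mark equal binding.

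Within 50 bp of the 63 summits, CGATA was found at 13 regions (20.6%), against 11.7% of all pooled regions and 13.5% of optimal peaks. CTCF words were found at 2 (3.17%), against 0.717% and 5.91%. DRE was found at 1 (1.59%), against 0.543% and 1.31%. The GAGA word GAGAG was found at 2 (3.17%), against 13.0% and 12.2%, and at none of the 11 regions of Trl. TATAAA was found at 10 (15.9%), against 9.09% and 13.9%. The su(Hw) word was found at 3.17%, against 1.46% and 2.53%. The median GC content of the 101 bp was 46.5%, against 45.5% for all pooled regions and 36.6% for optimal peaks. With 63 regions at 10 loci, each of these shares is a count of few sites.

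A second list of 35 other genes gave the setting. It took in genes of insulator proteins, their partners, cohesin and condensin, and also Lam, msl-2 and Su(var)3-9. Of the 35, 2 (5.71%) had an optimal promoter peak, close to the 4.90% of all protein-coding genes. They were pds5, a cohesin regulator (118.4, rank 491; 66.41 in replicate 3 and 54.09 in replicate 4), and the gene that encodes the nuclear pore proteins Nup98 and Nup96 (98.88, rank 691; 48.92 and 51.03). Next came fs(1)h, a BET bromodomain gene, with 59.84, and 43.81 (rank 1223) in replicate 3 and 30.98 (rank 1543) in replicate 4. Opbp, a zinc finger gene, had 51.74, with 38.63 (rank 1568) in replicate 3 but 12.96 (rank 27233) in replicate 4. Cap-H2, a condensin II subunit gene, had 50.34, with 24.92 (rank 4109) in replicate 3 and 22.93 (rank 4528) in replicate 4. A pooled promoter region was listed for 18 of the 35 (51.4%), with a median signal value of 29.65. Both replicate lists had a promoter region for 10 of the 35 (28.6%), against 24.5% of protein-coding genes. In the extended gene body 4 of 35 (11.4%) had an optimal peak. The added genes, named after their values were seen, were JIL-1, a kinase gene of interbands, with 202.5 (rank 194) in its body, and shep with 110.6 (rank 561).

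The genes whose promoter values lay nearest to those of Chro and Trl over the 2 replicates were sought among the 674 candidates by Euclidean distance of log2 signal values. For Chro these were Ssl1, which shares the peak, then PNPase, a polynucleotide phosphorylase gene (distance 0.14; 222.9 in replicate 3 and 206.3 in replicate 4) and mRpS10, a mitochondrial ribosomal protein gene (0.18; 234.3 and 203.0). For Trl they were CG14968 (0.0081; 67.36 and 50.81), mthl5 (0.0096; 68.14 and 50.85) and Rme-8 (0.05; 69.26 and 52.22). With 2 values per gene, this likeness says only that the levels in each replicate were near each other. In the pooled list the genes matched to Trl were lower, from 116.8 to 121.7, against 143.2 for Trl. PNPase had 432.2 and mRpS10 438.0 there, against 456.1 for Chro.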

How the data were processed

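ChIP-seq regions of 2 biological replicates in 1 group were used. Per the text files deposited with the samples, the authors called peaks and background regions for each replicate and for both pooled, with a control alignment, and thresholded them by the irreproducible discovery rate. Peak caller, aligner: not given in the sources used here. The signal value is a deposited score, and the deposited −log10 significance only broke ties in rank. The deposited offset gave the summit.

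Regions on dm6 were set against the Release 6 genome and Ensembl release 115 genes with Python 3.11.15 and pandas 2.3.3. Regions of different lists were tied by an overlap of 1 bp, taking the strongest. Motifs were searched within 50 bp of summits. Counting was checked on simulated data. The depth is unknown, so no interval is given. With 1 group, no test was made.

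The genes and lists were chosen with earlier results of these data known. Of 37 other listed genes, 35 matched a symbol. All 10 genes were named, with the other listed genes that had an optimal promoter peak, the next 3, the 3 genes nearest in signal to Chro and Trl, and neighbours with a TSS within 500 bp of a named summit. Alternatives were other windows, the most 5′ TSS, overlap in place of the summit, a stricter list, and either replicate alone.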

Additional observations from a re-analysis of the deposited data

How the results depend on the processing

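The count of 2 of the 10 genes with an optimal promoter peak held with windows of 250 bp and 1000 bp, with overlap in place of the summit, and in the stricter list of the 651 highest optimal peaks. The share of protein-coding genes was 3.59% with 250 bp, 6.07% with 1000 bp and 5.46% with overlap. With the most 5′ TSS alone the count was 1, since the Trl peak lies at an inner start, and the share 3.99%. With 1 replicate left out, taking the 1302 highest regions of the other, the count was 2 to 3. The share was 4.39% without replicate 3 and 5.15% without replicate 4. The count in the extended gene body was then 3 to 4, adding mod(mdg4) and, without replicate 4, Dref. There the share was 11.8% without replicate 3 and 11.6% without replicate 4. The count of other listed genes with a promoter peak was 2 to 4, adding fs(1)h and SMC2 without replicate 4, and it was 1 in the stricter list. In that stricter list, promoter peaks were found at 2.50% of protein-coding genes and peaks in the extended body at 6.27%. With the full optimal list, the share with a peak in the extended body was 11.5%. It was 4.66% in the gene body alone and 17.7% with 5 kb on each side. Peaks per 100 kb at the 10 genes fell from 3.64 to 2.35 with 5 kb on each side. Over all protein-coding genes the value was 0.655 in the stricter list against 1.30, an alternative chosen after seeing the data.

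No paired analysis was possible because both samples belong to 1 group. Signal values and ranks of the strongest pooled promoter regions were the same in windows of 250 bp and 1000 bp, except that Cp190 and M1BP had no pooled region within 250 bp. A replicate alone gave other values, as listed per gene. The limits are 2 replicates, an unknown depth, a score without a scale and lists that include background regions.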
